A study of Mus musculus with 8 samples.

Results

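The wild-type (WT) mouse embryonic stem cells of this series were compared after 14 days of differentiation with the same cells before differentiation. The comparison took the 4 WT libraries out of 8 in the series, 2 from WT cells at day 14 and 2 from WT cells at day 0, and all genes of the deposited count tables. The other 4 libraries came from cells of the same hybrid line that carry the HNRNPK 6A mutation, and they enter here through the estimate of the spread between libraries and through the test of whether a change differs between WT and 6A cells, which also served to choose some of the named genes. The line is a cross of the CAST/Ei and 129/Sv/Jae mouse strains, so that reads over sequence differences can be given to the CAST or to the 129 chromosome. The WT day 14 cells had been taken off leukemia inhibitory factor (LIF), had formed embryoid bodies in suspension for 4 days and had been plated on gelatin at day 5. The WT day 0 cells had grown with LIF on a layer of irradiated embryonic fibroblasts, and these feeders were removed at harvest. The series' design sentence speaks of day 7, whereas the titles, the cell type labels and the growth protocol all give day 14, which is used here. The protocol speaks of 2 biological replicates and does not say whether they were separate cultures, so the p-values measure only the spread between these libraries.

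Embryonic stem cells held in LIF keep a self-renewing state. It rests on transcription factors such as Oct4, Sox2 and Nanog and on naive factors such as Esrrb. Without LIF, aggregates of these cells form embryoid bodies, in which derivatives of all germ layers arise side by side: beating heart muscle, yolk sac endoderm, blood and vessel cells, neural progenitors and mesenchyme. Female cells also inactivate an X chromosome in this period. The noncoding RNA Xist coats that chromosome and recruits silencing factors, while its antisense partner Tsix holds Xist down in undifferentiated cells.

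The 2 WT day 14 libraries held 8146684 and 11655053 counts, and the 2 WT day 0 libraries held 8618779 and 15269189. Of 24421 genes in the tables, 15458 had enough counts to be tested. Levels are given as CPM, the count of a gene relative to the library total, after TMM scaling, which corrects for differences in composition between libraries. A gene was called where its edgeR quasi-likelihood p, adjusted over all tested genes by the Benjamini-Hochberg method, was under 0.05. A log2 fold change is of day 14 over day 0 and stands with its standard error (SE). The tissue is mixed, and in such bulk RNA fewer cells of a type and less RNA per cell cannot be told apart. Markers of undifferentiated cells summed to 419 and 396 CPM in the WT day 14 libraries and to 4361 and 4465 CPM in the WT day 0 libraries. RNA of Y-linked genes, which a female line lacks, was at 0 counts in both WT day 14 libraries and summed to 28.3 and 28.2 CPM in the WT day 0 libraries.

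Most of the measured transcriptome moved. In all, 11630 genes were called, 75.2% of those tested, of which 5940 (38.4%) rose and 5690 (36.8%) fell at day 14. With such a background a call alone says little about a gene, so sizes are given throughout. Called changes of more than 1 on the log2 scale took in 49.4% of tested genes, with 4248 rises (27.5%) and 3386 falls (21.9%). In 86.3% of tested genes the libraries of the 2 days did not overlap. At larger sizes the rises outnumbered the falls. More than 3 on the log2 scale was passed by 1404 rises and 431 falls, and more than 5 by 530 rises and 79 falls. The median log2 fold change of all tested genes was 0.04. Scaling to total counts instead of TMM put it at 0.24, so values below stand relative to the first of these medians. The change differed between WT and 6A cells in 4.74% of tested genes, and the difference, the WT change minus the 6A change, was above 0 in 3.34% and below 0 in 1.4%.

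Genes with clear expression at day 14 and near absence at day 0 outnumbered the reverse. In 54 genes each WT day 14 library held at least 100 counts and each WT day 0 library at most 3, and in 4 genes the reverse held. Afp, the fetal serum protein alpha-fetoprotein made by yolk sac and liver, was at 91.9 and 95.3 CPM in WT day 14 and at 0.123 and 0 CPM in WT day 0. That is 1998 counts against 1, a ratio of 2090 with an exact 95% interval of 375 to 82611 that covers counting error only. Actc1, the actin of embryonic heart muscle, held 1757 counts at WT day 14 and 1 at WT day 0 (ratio 1838, interval 330 to 72651). The 10 largest rises were taken among genes with a count at both days that GENCODE lists by symbol as protein-coding or long noncoding, without predicted genes, pseudogenes and clone names. Both of these genes were among them, and they also held Tcf21, a transcription factor of epicardium and mesenchyme (475 counts against 1), Tmprss2, an epithelial serine protease (577 against 1), and Gria2, a glutamate receptor subunit (367 against 1). Sorcs1, a sorting receptor, held 1271 counts at WT day 14 and 3 at WT day 0, and Asb12, an X-linked ankyrin repeat protein, 595 and 1. Each of these genes was near the floor of detection at WT day 0. Gata6, a transcription factor of heart and endoderm, was at 283 and 230 CPM in WT day 14 and at 0.494 and 0.777 CPM in WT day 0. Prdm6, a regulator of smooth muscle, was at 72.2 and 66.3 CPM against 0.37 and 0.0706 CPM. Ttr, the thyroxine carrier transthyretin of yolk sac and choroid plexus, held 814 counts against 2 (ratio 426, interval 118 to 3522).

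**Figure D1:**
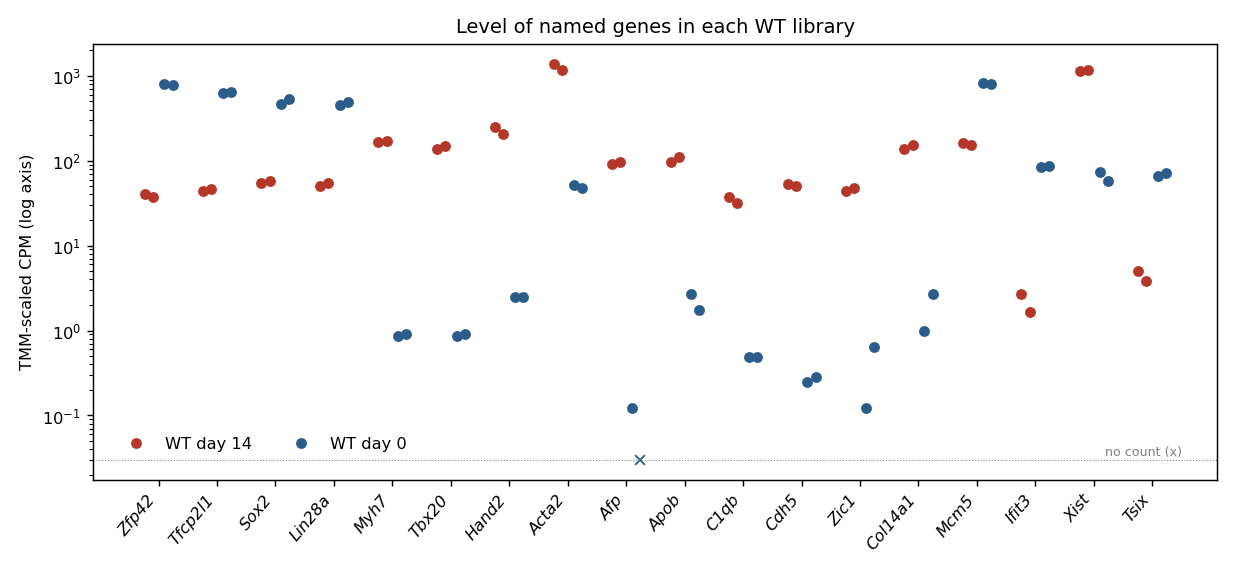
Level of 18 named genes in each of the 4 WT libraries, as TMM-scaled CPM on a log axis, with the 2 WT day 14 libraries (red) left of the 2 WT day 0 libraries (blue). In every gene shown both libraries of a day lie on the same side of both libraries of the other day. That holds for 86.3% of all tested genes. A cross on the dotted line marks a library with no count.

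The pluripotency network was down as a whole. All 16 genes of the naive pluripotency list, which also holds the secreted protein Spp1, fell. Their median log2 fold change was -3.54 against 0.04 for all genes. Zfp42 (Rex1), a zinc finger protein and classic stem cell marker, was at 40.9 and 37.1 CPM in WT day 14 and at 795 and 787 CPM in WT day 0 (log2 fold change -4.34 ± 0.12, edgeR adjusted p = 1.1e-11). Tfcp2l1, a transcription factor that acts downstream of LIF, was at 44.5 and 46.6 CPM against 626 and 641 CPM (-3.80 ± 0.12). The secreted phosphoprotein Spp1 stood at 76.3 and 82.5 CPM in WT day 14 and at 2007 and 1637 CPM in WT day 0. The levels of the 2 days did not overlap in any of these genes, which was also so in 86.3% of all tested genes. Of the allele reads of Spp1, 51.5% and 52.4% were given to the 129 chromosome in WT day 14, against 92.5% and 92.3% in WT day 0. That share moved less in Zfp42 (51.3% and 46.2% against 48.9% and 45.4%) and in Tfcp2l1 (99.1% and 97.8% against 99.0% and 98.7%). The part of feeder RNA in the fall of Spp1 was not tested.

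Of 17 core pluripotency and Lin28 genes, 16 fell (median log2 fold change -3.12). Sox2, the partner of Oct4 on DNA, was at 55.2 and 57.8 CPM in WT day 14 and at 459 and 526 CPM in WT day 0 (log2 fold change -3.12 ± 0.13, edgeR adjusted p = 9.7e-11). Nanog, a homeobox factor of the same network, was at 90.3 and 102 CPM against 1239 and 974 CPM. Pou5f1, which encodes Oct4, was at 34.2 and 36.6 CPM in WT day 14 and at 199 and 546 CPM in WT day 0. Its WT day 0 libraries lay far apart, so that its log2 fold change of -3.40 has the wide SE of 0.52. The pair of Lin28 genes, RNA-binding proteins that block let-7 maturation, parted. Lin28a was at 49.7 and 55.3 CPM in WT day 14 and at 455 and 489 CPM in WT day 0. Lin28b was at 42.3 and 48.8 CPM against 52.3 and 51.5 CPM, a difference of -0.19 ± 0.13 on the log2 scale that did not pass the test (edgeR adjusted p = 0.22). Nanog and Pou5f1 are named outside the rule for named genes, after their values were seen. Among genes of the formative and primed state 4 rose (30.8%) and 8 fell (61.5%) of 13, beside 38.4% and 36.8% of all tested genes. Among those that fell were Foxd3, a forkhead repressor (3.48 and 2.06 CPM in WT day 14, 64.0 and 76.5 CPM in WT day 0), and the Nodal ligand genes Nodal (10.3 and 9.57 CPM against 86.4 and 80.9 CPM) and Lefty2, its inhibitor (45.1 and 33.2 CPM against 387 and 343 CPM).

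Enzymes of DNA methylation traded places within families, and Polycomb subunits did not move as a block. Levels in these pairs are compared per kilobase of exon. Dnmt3a, a de novo methyltransferase, exceeded its relative Dnmt3b 3.71 and 4.16 times in WT day 14, whereas in WT day 0 the ratio was 0.214 and 0.187. Both genes moved, Dnmt3a up by 1.59 ± 0.11 on the log2 scale and Dnmt3b down (-2.71 ± 0.13; edgeR adjusted p = 1.2e-08 and 5.5e-10). The 5-methylcytosine oxidases showed the mirror image. The ratio of Tet1 to Tet3 was 0.617 and 0.741 in WT day 14, against 25.0 and 24.4 in WT day 0. Of 24 Polycomb subunits 9 rose (37.5%) and 11 fell (45.8%), beside 38.4% and 36.8% of all tested genes. Cbx7, a chromobox protein that reads methylated histone H3, was at 25.5 and 27.6 CPM in WT day 14 and at 188 and 233 CPM in WT day 0. Ezh2, the main catalytic subunit of Polycomb repressive complex 2, fell by 1.02 ± 0.13 on the log2 scale. Its relative Ezh1 was at 48.8 and 52.0 CPM in WT day 14 and at 52.7 and 57.5 CPM in WT day 0, and did not pass the test (edgeR adjusted p = 0.36).

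Ratios within a pair of adhesion genes and a pair of cell cycle genes shifted as well, and only the cell cycle pair traded places. N-cadherin (Cdh2), the cadherin of mesenchyme, heart and neural tissue, stood at 0.839 and 0.780 of the level of E-cadherin (Cdh1), the epithelial and stem cell form, in WT day 14. In WT day 0 that ratio was 0.0546 and 0.0314. Cyclin D2 (Ccnd2) exceeded cyclin E1 (Ccne1) 3.30 and 3.47 times in WT day 14, against ratios of 0.108 and 0.161 in WT day 0.

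**Figure D2:**
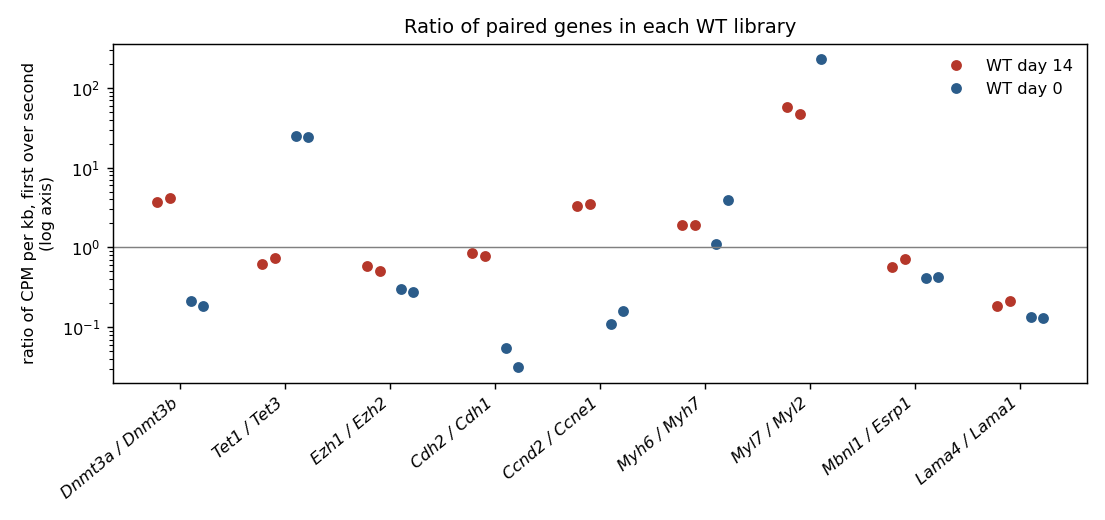
Ratio of levels per kilobase of exon within 9 pairs of related or opposed genes in each WT library, on a log axis, WT day 14 (red) left of WT day 0 (blue). Dnmt3a to Dnmt3b and Ccnd2 to Ccne1 lie above 1 at day 14 and below 1 at day 0, and Tet1 to Tet3 does the reverse; 1 WT day 0 library gives no value for Myl7 to Myl2, since it held no count of Myl2.

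Heart muscle genes rose together. The 20 sarcomere genes all rose (median log2 fold change 4.74), and so did all 14 cardiac transcription factors (median 5.60). Both lists lie far beyond the 38.4% of all genes that rose. The slow myosin heavy chain Myh7 was at 168 and 171 CPM in WT day 14 and at 0.864 and 0.918 CPM in WT day 0 (log2 fold change 7.54 ± 0.22, edgeR adjusted p = 1.1e-11). The giant sarcomere spring titin (Ttn) was at 736 and 902 CPM against 29.7 and 36.4 CPM. The transcription factors Tbx20 and Hand2, both needed for heart formation, were at 136 and 148 CPM and at 248 and 204 CPM in WT day 14. In WT day 0 they were at 0.864 and 0.918 CPM and at 2.47 in both libraries. Gata4, a zinc finger partner of both, was at 159 and 133 CPM against 4.20 and 4.38 CPM. Per kilobase, the atrial light chain Myl7 exceeded the ventricular Myl2 58.3 and 46.7 times in WT day 14, when Myl2 was at 3.48 and 3.64 CPM. The alpha myosin heavy chain Myh6 exceeded Myh7 1.93 and 1.90 times.

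Genes of calcium handling followed in most cases, with 7 of 9 up and 1 down. Slc8a1, the sodium-calcium exchanger, was at 280 and 295 CPM in WT day 14 and at 1.73 and 5.30 CPM in WT day 0. Ryr2, the calcium release channel of heart, was at 116 and 136 CPM against 11.5 and 18.9 CPM. Pln, phospholamban, held 350 counts at WT day 14 and none at WT day 0, which makes it at least 122-fold higher against a floor of 3 counts over both day 0 libraries. The calcium pump Atp2a2 was at 182 and 216 CPM in WT day 14 and at 249 and 137 CPM in WT day 0, and the groups overlap (edgeR adjusted p = 0.94). All 12 smooth muscle genes rose as well (median 4.48). Smooth muscle actin Acta2 was at 1384 and 1160 CPM in WT day 14 and at 52.0 and 47.2 CPM in WT day 0. Tagln, an actin-binding protein, was at 541 and 446 CPM against 23.8 and 18.4 CPM. Skeletal muscle genes were largely not measured, with 3 of 11 listed genes tested.

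Yolk sac and endoderm genes were the next strong block. Of 17 secreted and endocytic genes of yolk sac and visceral endoderm 14 rose and none fell. Their median log2 fold change was 5.48, or 2.80 with the 5 members that had no count at WT day 0 put at their lower bound. Apob, the core protein of lipoproteins, was at 96.1 and 112 CPM in WT day 14 and at 2.71 and 1.77 CPM in WT day 0 (log2 fold change 5.60 ± 0.21, edgeR adjusted p = 7e-11). Rbp4, the plasma carrier of retinol, was at 32.5 and 34.9 CPM against 1.23 and 1.13 CPM. Apoe, a lipoprotein made by many cell types, did not pass the test at 390 and 278 CPM in WT day 14 and 373 and 355 CPM in WT day 0. Of 12 endoderm transcription factors 9 rose. The pioneer factor Foxa1 was at 36.6 and 34.2 CPM in WT day 14 and at 0.123 and 0.424 CPM in WT day 0. Its relative Foxa2 held 222 counts against 2 (ratio 116, interval 31.8 to 965).

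Macrophage genes rose, and red cell genes did not as a group. Of 16 macrophage and white cell genes 15 rose (median 5.79). The complement subunit C1qb was at 37.1 and 32.0 CPM in WT day 14 and at 0.494 in both WT day 0 libraries. The mannose receptor Mrc1 was at 78.8 and 103 CPM against 1.60 and 0.706 CPM, and Csf1r, the receptor that macrophages need to survive, at 49.3 and 49.9 CPM against 0.37 and 0.777 CPM. Cx3cr1, a chemokine receptor of tissue macrophages, had 439 counts against none, at least 153-fold higher. Of 12 red cell genes tested 1 rose (8.33%) and 4 fell (33.3%), and 7 did not pass. Of all tested genes 38.4% rose and 36.8% fell. The embryonic globin Hba-x held 4 and 4 counts in WT day 14 and 6 and 2 in WT day 0. Gata1, the erythroid master regulator, was at 0.232 and 0.158 CPM in WT day 14 and at 3.21 and 3.95 CPM in WT day 0.

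Endothelial genes split, with 10 of 15 up, 2 down and 3 not called. VE-cadherin (Cdh5), the adhesion protein of vessel walls, was at 52.6 and 49.7 CPM in WT day 14 and at 0.247 and 0.282 CPM in WT day 0 (log2 fold change 7.51 ± 0.30, edgeR adjusted p = 1.1e-10). Kdr, the main receptor of vascular growth factor VEGF, was at 95.5 and 104 CPM against 1.85 and 3.60 CPM. Pecam1 and Eng, both in common use as endothelial markers, did not follow. Pecam1 was at 53.4 and 51.6 CPM in WT day 14 and at 48.4 and 52.7 CPM in WT day 0, with overlapping groups, and Eng at 36.5 and 35.1 CPM against 34.2 and 39.9 CPM. Neither passed the test (edgeR adjusted p = 0.70 and 0.72).

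Neural progenitor genes rose together, whereas genes of postmitotic neurons did not move as a group. The 17 genes of neural progenitors all rose (median log2 fold change 3.04). Zic1, a zinc finger factor of dorsal neural tissue, was at 43.8 and 47.1 CPM in WT day 14 and at 0.123 and 0.636 CPM in WT day 0 (log2 fold change 6.64 ± 0.30, edgeR adjusted p = 3.2e-10). Fabp7, a fatty acid carrier of radial glia, held 177 counts at WT day 14 and 1 at WT day 0 (ratio 185, interval 32.8 to 7356). Of 18 genes of postmitotic neurons, however, 8 rose (44.4%), 6 fell (33.3%) and 4 did not pass. These shares lie near the 38.4% and 36.8% of all tested genes. Dcx, the microtubule protein doublecortin of migrating young neurons, had 427 counts at WT day 14 and none at WT day 0, at least 149-fold higher. Stmn2, a tubulin-binding protein of axons, moved the other way, at 19.2 and 24.0 CPM in WT day 14 and 235 and 195 CPM in WT day 0. Neuronal tubulin Tubb3 was at 61.6 and 50.1 CPM against 196 and 191 CPM, and the synapse protein Syn1 held 40 and 51 counts in WT day 14 and 170 and 335 in WT day 0. Of a panel of 5 neuron markers 2 rose and 2 fell. It summed to 165 and 163 CPM in WT day 14 and to 472 and 431 CPM in WT day 0, where Tubb3 and Stmn2, the 2 that fell, made up most of the sum.

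Hox genes, which pattern the body axis and lie in their clusters in the order in which they act along it, rose at the anterior end and not at the posterior end. Of 19 tested genes of paralog groups 1 to 8, 15 rose and 1 fell, and of 14 of groups 9 to 13, 1 rose and 6 fell. Hoxb2 was at 13.7 and 12.3 CPM in WT day 14 and at 0.864 and 0.282 CPM in WT day 0 (log2 fold change 4.66 ± 0.35, edgeR adjusted p = 3.2e-08). Hoxd13 was at 4.17 and 4.82 CPM in WT day 14 and at 23.7 and 24.9 CPM in WT day 0 (-2.42 ± 0.18, edgeR adjusted p = 3.8e-08). The division at group 8 was set after the values were seen.

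Extracellular matrix genes rose at high abundance. Of 19 collagens 17 rose and 1 fell (median log2 fold change 2.87). Col4a5, an X-linked chain of basement membrane collagen, was at 305 and 279 CPM in WT day 14 and at 9.75 and 8.61 CPM in WT day 0 (5.00 ± 0.14, edgeR adjusted p = 1e-11). Col14a1, a collagen that coats fibrils, was at 139 and 153 CPM against 0.987 and 2.68 CPM. Sparc, a matrix protein that binds collagen, was at 2203 and 1931 CPM against 574 and 473 CPM. Of 24 other mesenchyme genes 21 rose and 3 fell (median 1.83). Cadherin 11 (Cdh11) was at 894 and 871 CPM in WT day 14 and at 44.1 and 47.1 CPM in WT day 0, and periostin (Postn) at 703 and 714 CPM against 42.7 and 37.4 CPM. Thy1, a surface protein of fibroblasts, went the other way, at 11.8 and 8.30 CPM in WT day 14 and 171 and 177 CPM in WT day 0. A panel of 8 fibroblast markers summed to 10754 and 9331 CPM in WT day 14 and to 1447 and 1321 CPM in WT day 0. Keratins of simple epithelium accompanied this. Krt18 was at 220 and 200 CPM in WT day 14 and at 9.26 and 10.7 CPM in WT day 0, and Krt8 at 128 and 116 CPM against 5.06 and 5.15 CPM.

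**Figure D3:**
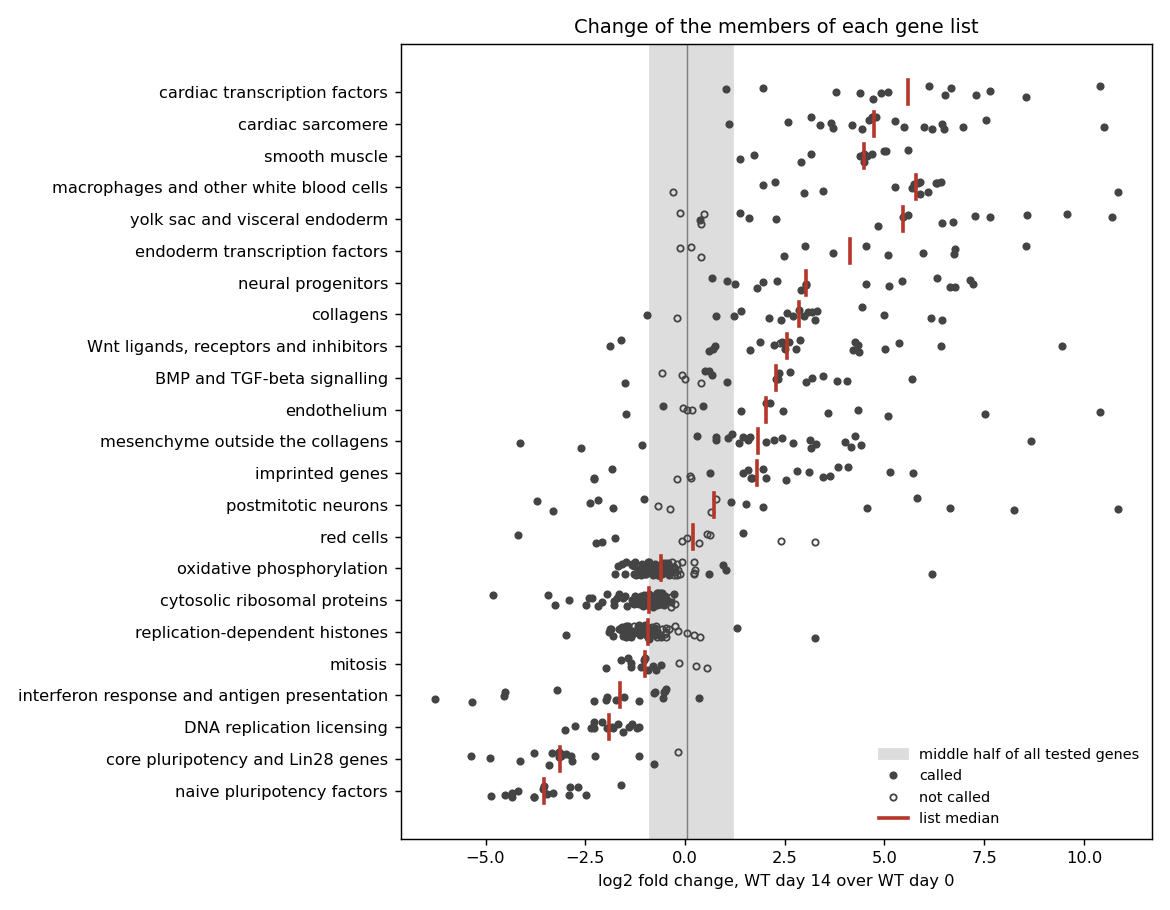
Log2 fold change of each tested member of 23 gene lists, WT day 14 over WT day 0, with called members filled and the list median as a red bar, over the interquartile range of all 15458 tested genes in grey. The medians of the cardiac, smooth muscle, macrophage, endoderm and neural progenitor lists lie to the right of the grey band, and those of the pluripotency and replication lists to the left.

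The 10 largest falls, taken among genes that meet the same conditions as the rises, held no pluripotency gene of the lists. Among them were Mmp3, a matrix protease (0.116 and 0.712 CPM in WT day 14, 196 and 183 CPM in WT day 0), and Il1rl1, the interleukin 33 receptor (1.28 and 0.949 CPM against 296 and 248 CPM). Penk, the precursor of enkephalin peptides, was at 2.78 and 2.69 CPM in WT day 14 and at 350 and 317 CPM in WT day 0 (log2 fold change -6.93 ± 0.16, edgeR adjusted p = 4.1e-12). The lymphocyte antigen genes Ly6a and Ly6c1 were at 0.58 and 0.237 CPM and at 0 and 0.316 CPM in WT day 14. In WT day 0 they were at 96.7 and 79.5 CPM and at 24.7 and 24.1 CPM. Gldn, gliomedin, held 2 counts at WT day 14 and 956 at WT day 0, a ratio of 457 (interval 126 to 3778). Also among the 10 were Mcpt8, a mast cell protease, Ereg, an epidermal growth factor ligand, and Oas2, an antiviral enzyme that interferon induces.

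Interferon response and antigen presentation genes fell with them, 17 of 18, at a median log2 fold change of -1.64. Ifit3, an antiviral protein, was at 2.67 and 1.66 CPM in WT day 14 and at 83.2 and 86.4 CPM in WT day 0 (-5.34 ± 0.19, edgeR adjusted p = 4.8e-11). Irf7, the factor that amplifies interferon production, was at 0.58 and 0.474 CPM against 37.5 and 44.0 CPM. Beside both groups stands the Y-linked RNA given above, at 0 CPM in both WT day 14 libraries and at 28.3 and 28.2 CPM in the WT day 0 libraries. Thy1 fell as well. The panel of fibroblast markers was higher at day 14, a sum that cannot show whether its day 0 RNA came from feeders. Over 24 mesenchyme genes outside the collagens, the 129 share of allele reads was 87.39% and 87.02% in WT day 14. It was 87.51% and 90.22% in WT day 0. With both libraries of a day pooled, Vim gave 52.4% at day 14 against 95.3% at day 0, and Loxl1 47.9% against 96.2%. Postn gave 99.5% against 99.8%, and Mgp 98.7% against 5.3%. These genes were picked after their values were seen. The part of feeder RNA in these shares and in the falls above was not tested.

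Genes of growth and division declined more moderately, with a larger median fall in replication licensing than in mitosis. All 16 licensing genes fell (median log2 fold change -1.90). Mcm5, a subunit of the replicative helicase, was at 162 and 154 CPM in WT day 14 and at 814 and 791 CPM in WT day 0 (-2.34 ± 0.12, edgeR adjusted p = 6.4e-10). Ccne1, which drives entry into replication, was at 43.9 and 43.5 CPM against 381 and 319 CPM. Of 15 mitosis genes 12 fell, with the smaller median of -0.99. Cdc20, an activator of the anaphase promoting complex, was at 107 and 90.9 CPM in WT day 14 and at 412 and 367 CPM in WT day 0. The proliferation marker Mki67 did not pass the test, at 350 and 426 CPM in WT day 14 and 188 and 343 CPM in WT day 0. Without WT day 0 replicate 2 it passed, with a log2 fold change of 1.04 (edgeR adjusted p = 0.010). Cell cycle inhibitors and D cyclins mostly rose, 9 of 12. The inhibitor Cdkn1b (p27) was at 196 and 188 CPM in WT day 14 and at 49.1 and 49.5 CPM in WT day 0, while cyclin D1 (Ccnd1) fell at 106 and 97.4 CPM against 470 and 478 CPM.

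Ribosomal protein genes fell nearly all together, by a smaller amount, and genes of oxidative phosphorylation fell less uniformly. Of 82 cytosolic ribosomal protein genes 76 fell and none rose, at a median log2 fold change of -0.90, where 36.8% of all genes fell. Of 78 oxidative phosphorylation genes 55 fell, 4 rose and 19 did not pass (median -0.61). Of the 61 tested histone genes 39 fell and 2 rose (median -0.94). The larger of these rises was H1f0, a replacement linker histone of nondividing cells that the name pattern of the list also takes in. It was at 340 and 300 CPM in WT day 14 and at 35.0 and 31.4 CPM in WT day 0 (3.27 ± 0.14, edgeR adjusted p = 1.2e-10). Ribosomal protein and histone genes have near-identical copies, among which the counting may have split reads, so single values of these families are uncertain. Small nucleolar RNA genes, which guide the modification of ribosomal RNA and mostly sit in introns of ribosomal and related genes, fell in 64 of 100 cases and rose in 5 (median -1.58). These medians are larger in size than the shift that scaling to total counts brings.

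Signalling genes rose in most families, with LIF and STAT3 signalling as an exception. Of 22 Wnt ligands, receptors and inhibitors 19 rose and 2 fell (median 2.56). The secreted inhibitor Sfrp1 was at 691 and 700 CPM in WT day 14 and at 94.0 and 96.0 CPM in WT day 0, and the receptor Fzd1 at 202 and 174 CPM against 6.42 and 11.5 CPM. Of 19 genes of BMP and TGF-beta signalling 14 rose and 1 fell (median 2.29). The ligand Tgfb2 was at 164 and 186 CPM in WT day 14 and at 13.5 and 11.7 CPM in WT day 0. Among 15 Notch genes, 14 rose. The exception was the receptor Notch4, at 14.1 and 12.1 CPM in WT day 14 and 94.3 and 127 CPM in WT day 0, while Notch3 was at 269 and 242 CPM against 51.0 and 62.6 CPM. Of 26 genes of FGF and insulin-like growth factor signalling 16 rose and 6 fell (median 0.96). The ligand Igf1 was at 49.6 and 54.5 CPM in WT day 14 and at 0.74 and 0.565 CPM in WT day 0. The binding protein Igfbp5 was at 988 and 973 CPM in WT day 14 and at 19.5 and 22.4 CPM in WT day 0. Of 9 genes of LIF and STAT3 signalling 2 rose (22.2%) and 3 fell (33.3%), with a median of -0.17. Of all tested genes 38.4% rose and 36.8% fell.

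Imprinted genes, which are expressed from a single parental copy and many of which act on fetal growth, mostly rose, 16 of 22 with 3 down (median 1.81). H19, a growth-restraining noncoding RNA, was at 5739 and 4895 CPM in WT day 14 and at 269 and 469 CPM in WT day 0 (log2 fold change 3.85 ± 0.24, edgeR adjusted p = 1.2e-07). Peg3, a zinc finger protein, was at 3192 and 3291 CPM against 158 and 226 CPM, and Nnat, neuronatin, held 4588 and 5362 counts against 127 and 170. On chromosome 12, genes of the imprinted domain between Dlk1 and Dio3 rose. Dlk1, a Notch-related ligand, was at 203 and 164 CPM in WT day 14 and at 16.8 and 16.5 CPM in WT day 0. The noncoding RNA Meg3 was at 1889 and 1847 CPM against 165 and 266 CPM, and Mirg, which hosts microRNAs, at 108 and 88.4 CPM against 32.3 and 29.7 CPM.

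That domain carries a large cluster of microRNAs, short RNAs that pair with messenger RNAs mainly through bases 2 to 8, the seed. The libraries were made from long total RNA, so reads over a hairpin locus count precursors and host transcripts and not mature microRNAs. Of 100 hairpin loci tested, 53 rose and 19 fell. The domain between Dlk1 and Dio3 held 47 of them, of which 42 rose and none fell (median log2 fold change 2.21), and in 46 both WT day 14 libraries lay above both WT day 0 libraries, which 44.5% of all tested genes did. These loci share host transcripts and are not independent. Outside the domain 11 rose and 19 fell. All 4 tested loci of the Mir17hg host transcript fell, and so did the host itself, with 142 and 242 counts in WT day 14 and 476 and 698 in WT day 0. The loci named here and the domains were chosen after their values were seen.

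The mature sequences show which of these loci belong to a shared seed family. They are given 5′ to 3′ from RefSeq for GRCm38.p6 with the seed in capitals, first for loci that fell and then for loci that rose:
mmu-miR-17-5p: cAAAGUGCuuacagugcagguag
mmu-miR-20a-5p: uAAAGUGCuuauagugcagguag
mmu-miR-93-5p: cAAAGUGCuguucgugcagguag
mmu-miR-18a-5p: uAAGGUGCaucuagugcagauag
mmu-miR-290a-3p: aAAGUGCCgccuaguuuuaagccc
mmu-let-7e-5p: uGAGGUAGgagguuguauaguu
mmu-let-7i-5p: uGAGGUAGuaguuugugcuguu
mmu-miR-100-5p: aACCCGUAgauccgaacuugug
mmu-miR-99b-5p: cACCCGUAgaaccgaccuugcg
mmu-miR-370-5p: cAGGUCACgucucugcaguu
mmu-miR-1193-3p: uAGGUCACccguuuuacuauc
mmu-miR-541-5p: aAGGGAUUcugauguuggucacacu
mmu-miR-335-5p: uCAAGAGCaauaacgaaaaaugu
The first 3 share the seed AAAGUGC and come from chromosomes 14, 14 and 5, and all 3 loci fell. The seed GAGGUAG belongs to 4 tested let-7 loci, and those of let-7e and let-7i, on chromosomes 17 and 10, rose. The other 2 lie on chromosome 13 and did not pass the test. Mirlet7d held 13 and 15 counts in WT day 14 and 9 and 8 in WT day 0 (log2 fold change 0.76 ± 0.48, edgeR adjusted p = 0.16). Mirlet7f-1 held 15 and 9 counts against 5 and 5 (1.32 ± 0.67, edgeR adjusted p = 0.088). Mirlet7f-1 passed the test with scaling to total counts (log2 fold change 1.52) and without WT day 14 replicate 2 (1.91). The seed ACCCGUA is shared by loci on chromosomes 9 and 17 that rose, and AGGUCAC by 2 loci of the chromosome 12 domain that rose. Loci of a seed did not always move alike: UCACCUG is shared by miR-412-3p, whose locus in that domain rose, and miR-1983, whose locus on chromosome 13 fell.

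Counts at these loci were low. The Mir335 locus, in the imprinted gene Mest, held 55 and 58 counts in WT day 14 and 4 and 1 in WT day 0 (log2 fold change 4.51 ± 0.52, edgeR adjusted p = 2.7e-06). Its host Mest was at 1617 and 1471 CPM in WT day 14 and at 289 and 250 CPM in WT day 0. Mir541, in the chromosome 12 domain, held 51 and 66 counts against 7 and 7 (3.10 ± 0.36). The Mir290a locus, of the cluster most typical of mouse embryonic stem cells, held 8 and 16 counts in WT day 14 and 42 and 94 in WT day 0 (-2.41 ± 0.35, edgeR adjusted p = 2.6e-05). Mir18 held 10 and 11 counts against 39 and 54. Mirlet7e held 16 and 18 counts at WT day 14 and 0 and 3 at WT day 0, a ratio of 11.9 (interval 3.73 to 60.3) over the libraries together.

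**Figure D4:**
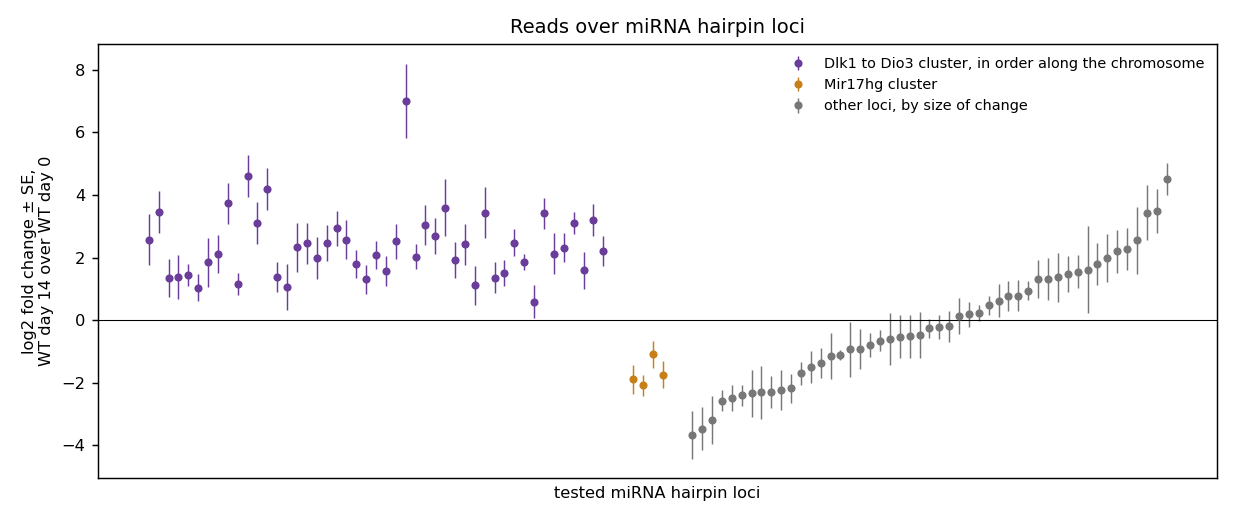
Log2 fold change ± SE, WT day 14 over WT day 0, of reads over 100 tested microRNA hairpin loci, from left to right those between Dlk1 and Dio3 in chromosomal order, those of Mir17hg and all others by size. Every locus of the chromosome 12 domain lies above 0 and all 4 Mir17hg loci lie below it.

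RNA of the X chromosome changed in a way that total gene counts show only in part. Xist (mm10, chromosome X, 103460366 to 103483254, minus strand in GENCODE) was at 1126 and 1158 CPM in WT day 14 and at 73.1 and 57.8 CPM in WT day 0 (log2 fold change 4.13 ± 0.15, edgeR adjusted p = 5.5e-11). Tsix was at 4.98 and 3.87 CPM in WT day 14 and at 65.5 and 72.2 CPM in WT day 0 (-3.98 ± 0.17, edgeR adjusted p = 1.8e-10). Their loci overlap and no source used here states the strand setting of the counting, so the RNAs cannot be fully told apart. Jpx, a noncoding activator of Xist, held 107 counts at WT day 14 and 6 at WT day 0. Of 9 factors that silence through Xist or localize it 7 fell and 1 rose, at a median of -0.71. Hnrnpk itself was at 495 and 474 CPM in WT day 14 and at 880 and 709 CPM in WT day 0 (-0.71 ± 0.12, edgeR adjusted p = 0.00013).

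X-linked protein-coding genes leaned downward. Of 553 tested, 259 fell and 179 rose. Their median log2 fold change was -0.37, against 0.05 for 14023 autosomal ones, a difference of -0.42. The reads that can be given to a parental chromosome split this change. Over 417 X-linked genes without Xist and Tsix, 13.2% and 13.8% of allele reads came from the 129 X chromosome in WT day 14, against 54.1% and 53.3% in WT day 0. In 3810 autosomal genes with a mean 129 share of 20% to 80% at day 0 the same share was 51.8% and 51.9% in WT day 14 and 51.9% and 52.0% in WT day 0. The X-linked genes that meet this last condition gave 10.6% and 11.3% in WT day 14 and 51.2% and 51.1% in WT day 0. Both sets were chosen by their day 0 share. With the libraries of a day pooled, the share was lower at day 14 in 2320 of these autosomal genes and higher in 1482. It was lower in 348 of the 360 X-linked genes and higher in 12. The median share per autosomal gene was 50% in both WT day 14 libraries and 53.8% and 53.9% in WT day 0. Over all 12146 autosomal genes with at least 10 allele reads on average the 129 share was 81.4% and 81.8% in WT day 14 and 81.2% and 81.4% in WT day 0. A share of at least 95% was thus common on the autosomes, in 63.0% of those genes at day 14 and 54.1% at day 0. Among the 417 X-linked genes it was found in 4 at day 14 and in 14 at day 0. Of the allele reads of Xist, 97.5% and 97.3% were given to the 129 chromosome in WT day 14 and 94.4% and 99.0% in WT day 0. Tsix, in the same locus, held few allele reads, with 2 and 2 given to the 129 chromosome in WT day 14 beside 3 and 5 for CAST, and 17 and 68 in WT day 0 beside 49 and 114 for CAST. The part of the allele assignment in these shares was not tested. In CPM, the 129 alleles of the 417 genes summed to 917 and 898 in WT day 14 and to 5452 and 5552 in WT day 0. The CAST alleles summed to 6025 and 5615 CPM in WT day 14 and to 4629 and 4865 CPM in WT day 0. The CAST sum at day 14 was thus 1.23 times that at day 0, the 129 sum 0.165 times, and both together 0.656 times. These ratios are not set relative to autosomes, whose allele sums were also lower at day 14. Over the 12146 autosomal genes, 129 alleles summed to 234607 and 214056 CPM in WT day 14 and to 242702 and 267919 CPM in WT day 0. Their CAST alleles summed to 53507 and 47614 CPM against 56084 and 61067 CPM.

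The fall of the 129 share held gene by gene, with exceptions. Of 336 X-linked genes with a 129 share of 20% to 80% in both WT day 0 libraries, 313 had a lower share in both WT day 14 libraries than in either day 0 library. Autosomal genes were not counted by this rule. In 126 of the 336 the 129 share was at most 10% in both WT day 14 libraries. In 25 genes with at least 50 allele reads it was above 25% in both WT day 14 libraries. In 18 of these 25 it was nonetheless lower in both WT day 14 libraries than in either day 0 library, and in 3 it was higher in both. In total level 23 of the 25 fell and 2 did not pass the test. The markers of undifferentiated cells given above, at 419 and 396 CPM in WT day 14 and 4361 and 4465 CPM in WT day 0, stand beside these shares, and their part in them was not tested. Among the 25 X-linked genes were the histone demethylases Kdm5c and Kdm6a, textbook escapees from X inactivation. The 129 share of Kdm5c was 39.2% and 37.4% in WT day 14 and 56.8% and 55.1% in WT day 0, and that of Kdm6a was 36.2% and 41.1% against 45.0% and 49.0%. Others of the 25 were Hprt, a purine salvage enzyme that serves as a classic example of a silenced gene, at 28.7% and 29.1% against 58.9% and 59.0%, and the noncoding RNA Firre, at 31.6% and 31.7% against 62.2% and 58.8%. These genes were named after their values were seen.

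**Figure D5:**
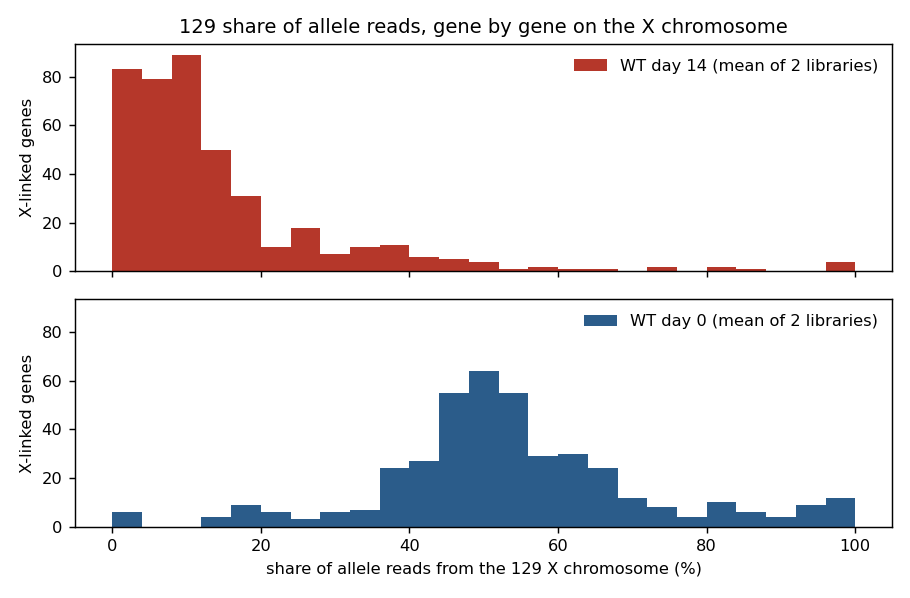
Number of X-linked genes by the share of their allele reads that came from the 129 X chromosome, as the mean of 2 libraries, WT day 14 above WT day 0, for 417 genes other than Xist and Tsix with at least 10 allele reads on average. The peak lies near 50% at day 0 and below 20% at day 14.

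Gene lists differed in the base composition of their promoters, which the counts do not use. Promoter windows from RefSeq (GRCm38.p6) run from 250 bases before to 50 after a start and were matched by symbol for 11388 of the 15458 tested genes. Only lists with windows for at least 80% of their tested members are described. An observed to expected CpG ratio over 0.6 was found in 68.7% of the matched windows. It held for 4 of 19 cardiac sarcomere genes, 2 of 15 yolk sac genes and 3 of 17 interferon response genes. It held for 1 of 8 genes of calcium handling and natriuretic peptides and for 9 of 19 imprinted genes. Nearer to the share of all windows were 9 of 12 Notch genes, 8 of 11 of trophoblast and simple epithelium, 9 of 13 of germ line and early embryo, 5 of 9 of DNA methylation, 7 of 9 of LIF and STAT3 signalling and 15 of 19 of glycolysis and hypoxia. At the other end it held for all 14 mitosis genes, 11 of 13 licensing genes, 19 of 21 Polycomb genes and all 8 genes of Xist silencing and localization with a window. The letters TATAAA on either strand were present in 7.40% of matched windows, and in 3 of 19 sarcomere, 3 of 15 yolk sac, 6 of 17 interferon and none of the mitosis windows. The lists with few windows over the CpG ratio of 0.6 included some that rose and the interferon response list, which fell. Lists that rose, such as Notch, also held many windows over that ratio.

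The window of the member with the smallest adjusted p is shown for a list of each kind, 5′ to 3′ on the gene's strand, with every CG and TATAAA in capitals:
Afp (chr5:90490464-90490763, plus strand, yolk sac list): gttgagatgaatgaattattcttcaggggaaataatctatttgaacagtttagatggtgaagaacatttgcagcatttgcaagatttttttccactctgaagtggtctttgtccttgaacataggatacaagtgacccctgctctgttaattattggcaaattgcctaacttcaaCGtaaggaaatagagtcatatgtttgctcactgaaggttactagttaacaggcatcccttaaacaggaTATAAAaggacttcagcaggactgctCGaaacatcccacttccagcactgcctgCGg
Myh7 (chr14:54994577-54994876, minus strand, sarcomere list): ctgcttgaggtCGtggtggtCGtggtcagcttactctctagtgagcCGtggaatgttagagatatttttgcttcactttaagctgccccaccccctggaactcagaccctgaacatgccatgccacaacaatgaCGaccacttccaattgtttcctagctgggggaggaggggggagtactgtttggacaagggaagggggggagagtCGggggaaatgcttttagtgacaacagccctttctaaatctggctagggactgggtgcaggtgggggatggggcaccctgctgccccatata
Ifit3 (chr19:34583279-34583578, plus strand, interferon list): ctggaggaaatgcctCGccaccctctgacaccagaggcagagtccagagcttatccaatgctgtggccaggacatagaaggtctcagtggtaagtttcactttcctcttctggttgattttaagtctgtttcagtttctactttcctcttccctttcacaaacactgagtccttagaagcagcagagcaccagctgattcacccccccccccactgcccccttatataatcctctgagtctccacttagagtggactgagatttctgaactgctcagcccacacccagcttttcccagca
Cdc20 (chr4:118437294-118437593, minus strand, mitosis list): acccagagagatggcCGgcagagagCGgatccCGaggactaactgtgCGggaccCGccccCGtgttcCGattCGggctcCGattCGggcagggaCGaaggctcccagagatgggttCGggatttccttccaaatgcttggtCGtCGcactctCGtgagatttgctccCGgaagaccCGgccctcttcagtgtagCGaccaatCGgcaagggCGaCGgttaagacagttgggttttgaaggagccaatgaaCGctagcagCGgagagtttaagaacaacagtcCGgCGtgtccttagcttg
The windows hold 3 CG in Afp, 5 in Myh7, 1 in Ifit3 and 25 in Cdc20. A match to these letters describes the window and is not a measured binding site.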

How the data were processed

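Ribosomal RNA-depleted, directional paired-end libraries were made with 2 biological replicates per group, per the labels' protocols. The authors deposited raw read counts per gene, and, separately, counts for the CAST allele and for the 129 allele. The submitters' processing notes name STAR 2.7.10a, cutadapt 1.4.2 and mm10. No source used here states the counter, its strand setting or its treatment of multi-copy reads. Genes were matched by symbol to GENCODE. The fit used edgeR 4.0.16 in R 4.3.3 (filterByExpr, TMM, robust quasi-likelihood test, 1 coefficient for each of 4 groups), with all 8 libraries sharing the spread. SE is the absolute log2 fold change over the square root of F. P-values were adjusted by the Benjamini-Hochberg method over 15458 genes, and under 0.05 was called. An exact permutation test of 2 against 2 libraries cannot go below 0.333. The fit was also run on simulated data in which few genes changed, so that run does not give its error rate on these data. DESeq2 1.42.0, other scalings and filters, a replicate block and leaving out each library were alternatives. Named genes are the 10 largest rises and falls reaching 5 CPM on average at the higher day and counted at both days (protein-coding or long noncoding in GENCODE by symbol, without predicted genes, pseudogenes and clone names), up to 4 called list members by adjusted p, uncalled members where few, the most abundant per kilobase, the largest differences from 6A and the pairs. Cx3cr1, Pln, Hba-x, Nanog, Pou5f1, Dlk1, Meg3, Mirg, the microRNA loci and the X-linked genes with allele shares were named after their values were seen. Members and lists were chosen with earlier results of these data known. A few results that the rule would name are not reported here.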

Additional observations from a re-analysis of the deposited data

Results flagged for a closer look

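For 21 of the 124 named genes the change between day 0 and day 14 differed between WT and 6A cells by edgeR's test of the difference, adjusted over all genes. Over all tested genes 4.74% did. Some named genes were chosen by this same test and Hba-x after its value was seen, so the 2 shares cannot be compared. The edgeR adjusted p lay near 0.05 for Gata1 (0.049), Zfp42 (0.043) and Spp1 (0.041). Values are the WT change minus the 6A change on the log2 scale. Among muscle genes the difference was 3.83 for Myh7, 2.66 for Myh6, 2.44 for Ttn, 2.42 for Myl7 and 0.77 for Acta2, so the rise was larger in WT. It was also larger in WT for Zic1 (3.80), Foxa1 (2.92), Fzd1 (1.21), Igfbp5 (1.18), Postn (0.88) and H1f0 (0.73). Tubb3 (2.09), Penk (1.77) and Spp1 (0.68) fell less in WT. Genes that fell more in WT were Gata1 (-2.58), Lin28a (-1.26), Dnmt3b (-1.05), Notch4 (-1.05), Cbx7 (-0.96) and Zfp42 (-0.60). The embryonic globin Hba-x gave -9.14, with 8 counts at each day in WT. The day 0 libraries of WT and 6A differed in Y-linked RNA, which a female line lacks. Before TMM scaling it summed to 26.6 and 26.1 CPM in WT day 0 and to 40.9 and 45.2 CPM in 6A day 0. Its part in these differences, such as those of Penk and Spp1, was not tested. These differences were not weighed against any explanation.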

How the results depend on the processing

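The count of called genes lay between 10354 and 11985 over the alternatives that keep the call rule, and no shared call changed direction. Requiring a log2 change over 1 left 7634 genes, 3386 of them lower. Scaling to total counts called 6768 higher and 4821 lower. The replicate block called 11947; the libraries share only a number (same-numbered deviations correlated at 0.00422 for WT day 14 with WT day 0, and at up to 0.237 between other groups), and among named genes the block changed the call of Mki67 alone (log2 fold change 0.59, now called). Each of the 114 called named genes stayed called under each of the 14 alternatives that keep the call rule; they were not run under the larger log2 change. Genes whose change differed between WT and 6A numbered 733, 1018 with the block, and 280 to 835 with 1 library left out: 280 and 350 without WT day 14 replicate 2 or 1, 371 without 6A day 0 replicate 2, 341 and 465 without 6A day 14 replicate 1 or 2. The X-linked minus autosomal median of -0.42 was -0.31 with no filter, -0.38 from the 4 WT libraries, -0.45 at a mean of at least 10 CPM, and -0.46 to -0.39 with 1 library left out. Uncalled genes turned sign: Lin28b 0.015, Ezh1 0.072, Apoe 0.072 and Eng 0.15 with total counts, and with 1 library left out Atp2a2 (-0.33 to 0.52), Apoe (-0.34 to 0.10), Pecam1 (-0.018 to 0.11), Eng (-0.17 to 0.058) and Hba-x (-0.96 to 1.34). The causes were not tested. Depth limits the microRNA loci and genes near 0 most.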
